A study of Homo sapiens with 21 samples.

Results

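Cells dispose of superoxide and peroxides through a small set of enzymes that draw their reducing power from glutathione and thioredoxin, and 44 genes of this system were followed in a human acute myeloid leukemia line. They were taken by symbol from the 58174 gene identifiers of the deposited tables: 2 superoxide dismutases and catalase, 6 peroxiredoxins, 5 glutathione peroxidases, 5 genes of glutathione synthesis and reduction, 9 soluble and 3 microsomal glutathione transferases, 8 genes of the thioredoxin and glutaredoxin system, 3 sestrins, and the transcription factor NRF2 (NFE2L2) with its inhibitor KEAP1. After UM171, 17 members, PRDX1, SOD1, GSTP1 and PRDX6 among them, were highest at 24 h, whereas TXNIP and SESN2 were highest at 72 h, when GCLM and KEAP1 were lowest. In sgEPCR cells several of these 17, SOD1 among them, were higher than in control cells without UM171. How many did so depended on the scaling and on 2 libraries of high mitochondrial counts, and the labelled culture time differed between these groups.

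Superoxide dismutases turn superoxide into hydrogen peroxide, and catalase, the glutathione peroxidases and the peroxiredoxins reduce the peroxide to water. Peroxiredoxins are recycled by thioredoxin and thioredoxin reductase, and glutathione peroxidases by glutathione and glutathione reductase. Glutathione is made from cysteine, which enters the cell as cystine through the transporter SLC7A11. KEAP1 holds NRF2 at a low level by sending it for degradation, and oxidants or electrophiles release NRF2, which then activates many of these genes through the antioxidant response element. Myeloid cells need this system in particular because the phagocyte oxidase makes superoxide.

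The 21 libraries of OCI-AML5 fell into 7 groups of 3. Control cells were kept in DMSO, the vehicle, or exposed to UM171, a small molecule used to expand hematopoietic stem cells, for 6, 24, 48 or 72 h. Cells of OCI-AML5 clones carrying a guide RNA against EPCR (sgEPCR), the protein C receptor encoded by PROCR, received DMSO or UM171 for 24 h. The labels give 500 nM UM171 for each treated group, 72 h for the control DMSO libraries and 24 h for the sgEPCR DMSO libraries, so that culture time cannot be told apart from UM171 at 6, 24 and 48 h, or from genotype in the comparison of the DMSO groups. The study's own text gives a lower dose of UM171 for this experiment than the labels do. The labels speak of a knockdown and the series text of null cells. The paper calls the wild-type cells of its genotype comparison sgAAVS1, whereas the labels name no guide for the control cells. The study derived more than 1 clone, but neither source says which clone or guide gave which library. The spread between libraries may therefore be technical, clonal or both. The comparisons of each time with DMSO share the DMSO libraries, as do the comparisons across genotypes.

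The libraries held 24.3 to 51.5 M counts, with a median of 33.9 M. PROCR was at 3.37, 4.30 and 3.38 TPM (transcripts per M, a level corrected for transcript length) in control DMSO, 48.5 in each control library at 24 h of UM171, 2.30, 4.53 and 3.93 in sgEPCR DMSO and 8.94, 4.23 and 8.41 in sgEPCR UM171. Its transcript, which a guide need not remove, therefore responded to UM171 less in the cells labelled sgEPCR, by -3.06 on the log2 scale (SE 0.17, adjusted p = 5.8e-07), and by -2.92 without the 2 libraries of high mitochondrial counts described below (SE 0.14, adjusted p = 2.2e-10). Of 5 markers of myeloid leukemia cells, PTPRC, SPI1, CD33 and LYZ were at 1 TPM or more in every library and MPO was lower, from 0.48 to 9.08 TPM. The 3 erythroid and 2 epithelial markers, CD3E, CD2 and MS4A1 were below 1 TPM in every library. The T cell gene CD3D rose with UM171, from 0.11 to 0.80 TPM in control DMSO to 14.6 to 18.3 TPM at 72 h, and the B cell gene CD79A from 9.33 to 10.2 TPM to 20.5 to 23.4 TPM. The fibroblast genes COL1A1 and COL3A1 reached 1.31 and 2.57 TPM. The part of these markers in the results was not tested. One library of each sgEPCR group stood apart. Mitochondrial transcripts took 35.9% of all counts in replicate 1 of sgEPCR DMSO and 32.2% in replicate 2 of sgEPCR UM171, while the remaining 19 libraries had 7.73 to 13.5%. Fold changes and counts of members in sgEPCR cells are therefore given with and without these 2 libraries. Without them each sgEPCR group holds only 2 libraries. P-values then rest on the spread within all groups of the fit, the 3 libraries of each control group included, and not on the sgEPCR libraries alone.

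Of the 44 members, 40 had enough counts to be tested in both fits. GSTT2B had no count in any library, and GPX3, GSTM3 and GPX8 had at most 2, 3 and 5 counts in a library, which leaves the plasma peroxidase GPX3 and the endoplasmic reticulum enzyme GPX8 without a measurable response. The counts of 36 members were whole numbers in every library (within 0.005 of a count). The closely related genes of the GSTM cluster on chromosome 1 had counts that were not whole. The median posterior standard deviation of the count, RSEM's own error of its estimate, was 6.77% for GSTM2, 2.28% for GSTM4 and 0.631% for GSTM1. SRXN1, whose counts were whole, had 0.711%.

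The promoters of 35 members were found in RefSeq (GRCh38.p14, 250 bases before to 50 after each start) and searched on both strands for TGACNNNGC, the core of the antioxidant response element. It occurred in the promoters of 8 of these members (22.9%), or in 9 of their 53 promoters (17.0%), and in 13.3% of all 35116 promoters of the same length. The 8 were GCLM, GSTM1, GSTP1, GSTO1, MGST1, TXNRD1, SESN1 and KEAP1. Of these, MGST1, SESN1 and KEAP1 also had RefSeq promoters without a match. No promoter was found for SOD1, PRDX1, PRDX6, GSR, GSS, GSTT2B, MGST2, TXN2 and SLC7A11, so these were not searched. Matches from genes that moved in opposite directions are shown with 10 bases on each side, 5′ to 3′ along the strand of the gene, with the match in capitals. GSTP1 and GSTM1 were among the genes that rose by 24 h, and GCLM, TXNRD1 and KEAP1 among those that were lower at 72 h.
GSTP1: gccggcgccgTGACTCAGCactggggcgg
GSTM1: ctgggcgcccTGACTTCGCtcccggaacc
GCLM: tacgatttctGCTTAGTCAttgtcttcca
TXNRD1: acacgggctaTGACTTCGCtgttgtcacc
KEAP1: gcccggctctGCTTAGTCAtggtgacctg
The GSTP1 stretch is chr11:67583736-67583764 on the plus strand, with the match beginning 66 bases before the RefSeq start, and that of GSTM1 is chr1:109687642-109687670, plus strand, 165 bases before. The TXNRD1 stretch lies at chr12:104215670-104215698 on the plus strand, 99 bases before the start. Those of GCLM (chr1:93909446-93909474, 34 bases before) and KEAP1 (chr19:10502784-10502812, 31 bases before) are on the minus strand and hold the element in the other orientation. For the matches shown, the 9 letters were the same in GSTM1 and TXNRD1, and the same in GCLM and KEAP1, although GSTM1 and TXNRD1 did not move alike. Not shown are matches of TXNRD1 that began 8 bases before the same start and 102 before another, and one of KEAP1 54 bases before its start. The letters of those at 102 and 54 bases differed from the match shown for the same gene.

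The first question was how these genes changed over the 72 h of UM171. Among the 40 tested members, mean TPM was highest in DMSO for 4, at 6 h for 6, at 24 h for 17, at 48 h for 2 and at 72 h for 11. A change is called past both limits where it exceeded 2-fold with an adjusted p from edgeR under 0.0001. A gene is said to rise or fall where the adjusted p was under 0.05, which is also called the looser limit.

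At 6 h little had moved by more than 2-fold. By edgeR no member was past both limits in either direction, with 8 higher and 17 lower at an unadjusted p under 0.05, and DESeq2 and limma also called 0. Among all genes, 6.78% were past both limits upward and 0.247% downward. The members that rose at an adjusted p under 0.05 were 7 and those that fell 16, beside 31.8% and 30.3% of all genes. This split depended on the scaling, being 18 and 7 with total count scaling, under which the median over all genes shifted to 0.20 on the log2 scale. The largest rise at 6 h was that of SESN3, a sestrin, which went from 4.33, 4.30 and 4.71 TPM in DMSO to 9.08, 9.06 and 10.4 TPM (log2 fold change 0.86, SE 0.06, adjusted p = 4.4e-09). MGST2, a microsomal glutathione transferase that can also make leukotriene C4, followed with 0.70 (SE 0.05, adjusted p = 5.9e-09). KEAP1 fell by 0.59 (SE 0.06, adjusted p = 5.2e-07) and glutathione reductase (GSR) by 0.54 (SE 0.04, adjusted p = 1.3e-08).

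At 24 h, 10 members were past both limits upward and 1 downward, or 11 of 40, beside 9.03% and 4.7% of all genes. Under the looser limit 22 rose and 8 fell, beside 34.9% and 34.8% of all genes. The median over members was 0.25 on the log2 scale and that over all genes -0.01. The 10 that rose came from 7 of the 9 classes, the exceptions being the glutathione peroxidases and the NRF2 regulators.

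**Figure D1:**
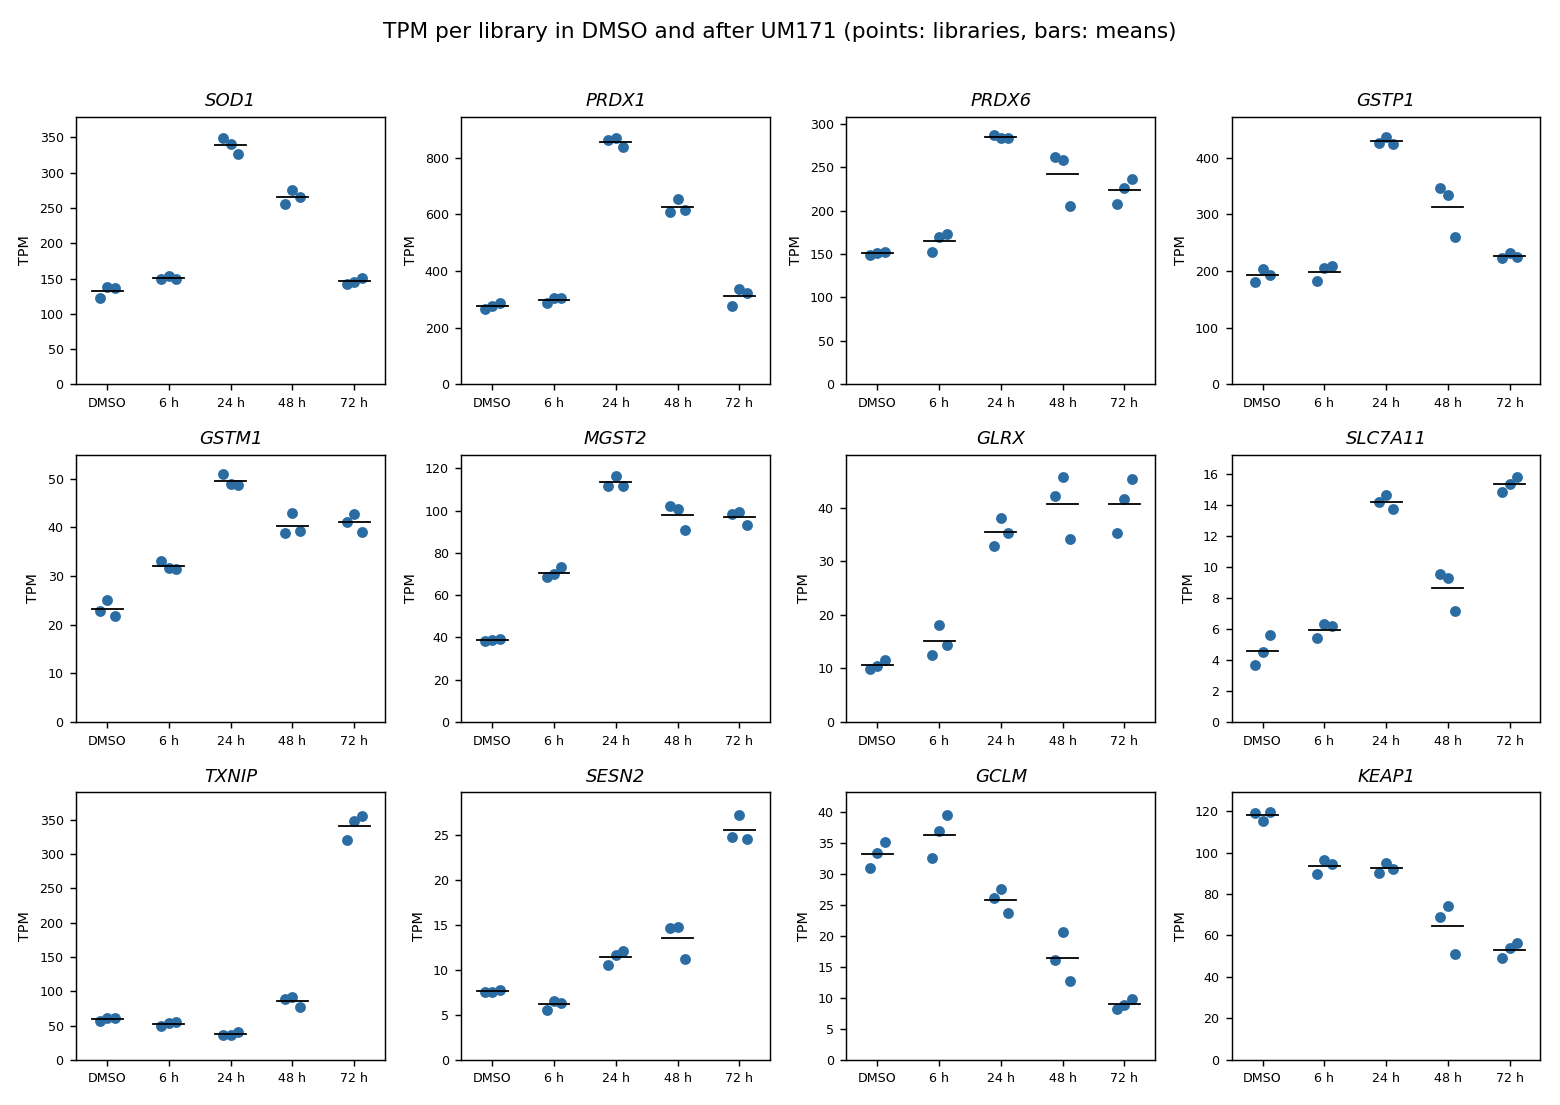
TPM of 12 members in control cells, by time in UM171 (points are the 3 libraries of a group, bars their mean, and each vertical axis starts at 0). SOD1, PRDX1, PRDX6 and GSTP1 were highest at 24 h, TXNIP rose from at most 41.0 TPM at 24 h to at least 320.4 TPM at 72 h, and GCLM fell from at least 31.0 TPM in DMSO to at most 9.75 TPM at 72 h.

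Of the dismutases and catalase, SOD1, the copper and zinc dismutase of the cytosol, changed most at 24 h. It was at 122, 138 and 137 TPM in DMSO, 149, 154 and 150.0 at 6 h, 349.9, 341 and 327 at 24 h, 256, 276 and 266 at 48 h and 143, 146 and 151 at 72 h. All libraries of 24 h and 48 h lay above all others of the time course. The log2 fold change was 1.31 at 24 h (SE 0.06, adjusted p = 4.5e-12) and 1.03 at 48 h (SE 0.06, adjusted p = 7.7e-11), and from 24 to 72 h SOD1 fell by 1.25 (SE 0.06, adjusted p = 9.5e-12). The 48 h value was just above 2-fold and became 0.99 without DMSO replicate 1 and 0.94 without UM171 48 h replicate 3. SOD2, the manganese dismutase of mitochondria, moved little, with 59.1, 66.5 and 63.9 TPM in DMSO and 77.9, 79.1 and 77.8 at 24 h (log2 fold change 0.14, SE 0.04, adjusted p = 0.0025). Catalase (CAT), the peroxisomal enzyme, was at 139, 148 and 149 TPM in DMSO and 138, 141 and 129.9 at 24 h, and was at 174, 177 and 185 TPM at 72 h (0.28, SE 0.03, adjusted p = 8.0e-07). SOD1 was thus highest at 24 h and catalase at 72 h.

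Among the peroxiredoxins 5 of 6 rose at 24 h, beside 34.9% of all genes, and 2 of them were past both limits, beside 9.03%. The class median was 0.85 on the log2 scale. PRDX1, the abundant cytosolic peroxiredoxin, was at 265, 278 and 287 TPM in DMSO, 286, 306 and 303 at 6 h, 864, 869 and 838 at 24 h, 609.5, 654 and 617 at 48 h and 277, 336 and 323 at 72 h. No library of another group of the time course came near those of 24 h. The log2 fold change was 1.60 at 24 h (SE 0.07, adjusted p = 1.1e-12), or 3.03-fold, and 1.12 at 48 h (SE 0.06, adjusted p = 7.4e-11), and from 24 to 72 h PRDX1 fell by 1.65 (SE 0.07, adjusted p = 1.0e-12). PRDX6, which has a single catalytic cysteine and uses glutathione, was at 149, 151 and 152 TPM in DMSO, 287, 284 and 283 at 24 h, 261, 258 and 205 at 48 h and 208, 226 and 237 at 72 h. Its rise at 24 h was 1.04 (SE 0.03, adjusted p = 8.3e-14), and 0.91, short of 2-fold, with limma on log2(TPM + 1). At 72 h PRDX6 still stood 0.62 above DMSO (SE 0.03, adjusted p = 3.3e-11). PRDX4, the secretory pathway member, was at 70.4, 74.5 and 70.2 TPM in DMSO and 152, 151 and 139 at 24 h (0.99, SE 0.06, adjusted p = 8.9e-11), just short of 2-fold. The mitochondrial PRDX3 rose by 0.72 (SE 0.07, adjusted p = 7.0e-08) and the cytosolic PRDX2 by 0.53 (SE 0.05, adjusted p = 2.3e-08). PRDX5 differed from its family, at 122, 133 and 131 TPM in DMSO and 131, 122 and 139 at 24 h (-0.05, SE 0.05, adjusted p = 0.39). It was at 189.7, 183 and 164 TPM at 48 h and reached 212, 246 and 214 TPM at 72 h (0.71, SE 0.05, adjusted p = 1.0e-09), when PRDX1 was back near its DMSO level. At 48 h all 6 members of the class were above DMSO at an adjusted p under 0.05, beside 37.1% of all genes.

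The glutathione peroxidases showed no such rise. GPX1, the selenoprotein that is the main glutathione peroxidase of the cytosol, was among the most abundant members, at 693, 755 and 772 TPM in DMSO, 639, 695 and 706 at 6 h, 619, 698 and 738 at 24 h, 600.3, 543 and 428 at 48 h and 530.3, 565 and 523 at 72 h. Levels at 72 h lay below every DMSO library (-0.53, SE 0.07, adjusted p = 2.4e-06). GPX4, which reduces lipid peroxides in membranes and guards against ferroptosis, was at 204, 224 and 200.1 TPM in DMSO and 245, 249.5 and 225 at 72 h (0.12, SE 0.05, adjusted p = 0.051). GPX7 of the endoplasmic reticulum stayed between 31.9 and 50.1 TPM in the control libraries. At 24 h the level of PRDX1 passed that of GPX1, whereas in DMSO GPX1 was the higher.

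Glutathione supply split into a rising and a falling part. SLC7A11, the cystine transporter, was at 3.67, 4.54 and 5.63 TPM in DMSO, 5.40, 6.32 and 6.17 at 6 h, 14.2, 14.7 and 13.8 at 24 h, 9.54, 9.32 and 7.15 at 48 h and 14.8, 15.3 and 15.8 at 72 h. It had the largest rise of any member at 24 h, 1.61 (SE 0.09, adjusted p = 4.9e-11), or 3.06-fold, and was 1.61 above DMSO at 72 h (SE 0.09, adjusted p = 2.5e-11), with lower levels in the 3 libraries of 48 h between. Glutathione synthetase (GSS), which adds glycine in the last step, rose by 0.59 at 24 h (SE 0.05, adjusted p = 1.7e-08) and 0.71 at 72 h (SE 0.05, adjusted p = 9.2e-10). The 2 subunits of glutamate-cysteine ligase, the rate-limiting enzyme, went the other way. GCLM, its modifier subunit, was at 31.0, 33.4 and 35.1 TPM in DMSO, 32.6, 36.9 and 39.5 at 6 h, 26.1, 27.6 and 23.7 at 24 h, 16.1, 20.6 and 12.7 at 48 h and 8.27, 8.92 and 9.75 at 72 h. From 24 h on each group lay below the one before it, with no overlap between groups, and the change reached -1.77 at 72 h (SE 0.09, adjusted p = 5.4e-12). GCLC, the catalytic subunit, fell less, from 39.9, 46.8 and 41.8 TPM in DMSO to 26.9, 30.9 and 27.5 at 72 h (-0.70, SE 0.04, adjusted p = 4.9e-11). GSR, which returns oxidized glutathione to its reduced form, was the most abundant gene of this class in DMSO at 66.6, 62.2 and 61.2 TPM, with 47.8, 48.5 and 47.0 at 6 h, 58.7, 64.2 and 61.4 at 24 h, 66.3, 64.5 and 66.8 at 48 h and 54.7, 54.7 and 47.0 at 72 h. It was thus low at 6 h and again at 72 h (-0.46, SE 0.04, adjusted p = 2.9e-08).

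Glutathione transferases attach glutathione to electrophiles. GSTP1, the most abundant soluble one here, was at 180.1, 204 and 193 TPM in DMSO, 183, 205 and 209 at 6 h, 426, 437 and 425 at 24 h, 346, 335 and 260.4 at 48 h and 223, 232 and 224 at 72 h. The groups of 24 h and 48 h stood above the rest without overlap. Its log2 fold change at 24 h was 1.16 (SE 0.04, adjusted p = 4.9e-13). GSTM1, a gene that many people lack, was expressed in this line at 22.8, 25.1 and 21.9 TPM in DMSO, 33.0, 31.7 and 31.5 at 6 h, 50.9, 48.9 and 48.6 at 24 h, 38.7, 43.0 and 39.2 at 48 h and 41.2, 42.8 and 39.1 at 72 h. It rose by 1.08 at 24 h (SE 0.06, adjusted p = 1.2e-10) and, unlike GSTP1, stayed well above DMSO at 72 h (0.77, SE 0.06, adjusted p = 6.5e-09). GSTM4 was at 4.16, 4.26 and 4.58 TPM in DMSO, 5.53, 7.70 and 7.12 at 6 h, 14.5, 13.0 and 12.4 at 24 h, 8.99, 11 and 8.59 at 48 h and 10.5, 13.6 and 12.2 at 72 h. All its libraries with UM171 exceeded those in DMSO, by 1.53 at 24 h (SE 0.10, adjusted p = 5.7e-10), 1.19 at 48 h (SE 0.10, adjusted p = 1.6e-08) and 1.47 at 72 h (SE 0.10, adjusted p = 5.6e-10).

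GSTM2, the third gene of this cluster, was barely expressed, with 3.11 to 66.8 expected counts in a library. It was at 0.49, 0.49 and 0.71 TPM in DMSO, 1.19, 0.91 and 1.08 at 6 h, 0.25, 0.18 and 0.14 at 24 h, 0.46, 0.44 and 0.44 at 48 h and 1.01, 1.22 and 1.18 at 72 h. It was the only member past both limits downward at 24 h (-1.78, SE 0.30, adjusted p = 5.7e-05), opposite to GSTM1 and GSTM4, and rose by 2.56 from 24 to 72 h (SE 0.28, adjusted p = 4.0e-07). The 24 h call lost its adjusted p under 0.0001, at log2 fold changes of -1.57 to -1.8, without DMSO replicate 1 or 3, UM171 24 h replicate 2 or 3, or any 1 of the UM171 6 h libraries. Of the other soluble transferases, GSTK1 of mitochondria and peroxisomes was lower at 24 h (-0.30, SE 0.04, adjusted p = 4.0e-06), GSTO1 slightly higher (0.25, SE 0.10, adjusted p = 0.030), and GSTZ1, which acts in tyrosine breakdown, was near its DMSO level (-0.04, SE 0.07, adjusted p = 0.60). By 72 h GSTZ1 was 0.51 above DMSO (SE 0.06, adjusted p = 1.1e-06).

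Among the microsomal transferases, MGST2 was at 38.5, 38.8 and 39.2 TPM in DMSO, 68.6, 70.0 and 73.3 at 6 h, 112, 117 and 112 at 24 h, 102, 101 and 90.8 at 48 h and 98.4, 99.1 and 93.2 at 72 h. Every library with UM171 lay above every DMSO library. The changes were 1.52 at 24 h (SE 0.05, adjusted p = 8.3e-14), 1.35 at 48 h (SE 0.05, adjusted p = 2.7e-13) and 1.23 at 72 h (SE 0.05, adjusted p = 5.5e-13). MGST1, the most abundant of the 3, was at 314, 233 and 248 TPM in DMSO, 306, 274 and 274 at 6 h, 356, 391 and 377 at 24 h, 309, 272 and 307 at 48 h and 222, 219.7 and 217 at 72 h. It rose by 0.53 at 24 h (SE 0.06, adjusted p = 5.0e-07) and was 0.36 below DMSO at 72 h (SE 0.06, adjusted p = 4.1e-05). MGST3 stayed between 154 and 199 TPM in the control libraries.

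In the thioredoxin system the disulfide carrier itself rose early and its binding partner late. Thioredoxin (TXN) was at 174, 189 and 189.9 TPM in DMSO, 168, 178 and 183 at 6 h, 364, 367 and 339 at 24 h, 278, 299 and 227 at 48 h and 206, 205 and 209 at 72 h, a rise of 0.92 at 24 h (SE 0.05, adjusted p = 1.2e-11). TXNIP, which binds thioredoxin and blocks it and which also limits glucose uptake, was at 56.2, 61.3 and 60.9 TPM in DMSO, 49.2, 54.1 and 54.7 at 6 h, 36.3, 35.5 and 41.0 at 24 h, 88.1, 91.1 and 76.5 at 48 h and 320.4, 348 and 355 at 72 h. TXNIP was thus lowest when thioredoxin was highest, at 24 h (-0.72, SE 0.05, adjusted p = 8.1e-10), and at 72 h had the largest change of any member, 2.41 (SE 0.05, adjusted p = 1.5e-16), or 5.32-fold. From 24 to 72 h the rise was 3.14 (SE 0.05, adjusted p = 3.8e-17), or 8.79-fold. Thioredoxin reductase 1 (TXNRD1), the selenoprotein that recycles thioredoxin in the cytosol, was at 157, 160.1 and 157 TPM in DMSO, 139, 151 and 144 at 6 h, 174, 174 and 152 at 24 h, 128, 138 and 99.7 at 48 h and 79.4, 89.4 and 92.7 at 72 h. It was 0.93 below DMSO at 72 h (SE 0.05, adjusted p = 5.6e-11), and its fall of 1.03 from 24 to 72 h (SE 0.05, adjusted p = 3.4e-11) was at the 2-fold limit, and was no longer over 2-fold without UM171 24 h replicate 2.

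Glutaredoxin (GLRX), which uses glutathione to release proteins from mixed disulfides, was at 9.84, 10.5 and 11.7 TPM in DMSO, 12.6, 18.2 and 14.4 at 6 h, 32.8, 38.1 and 35.4 at 24 h, 42.1, 45.8 and 34.1 at 48 h and 35.3, 41.6 and 45.3 at 72 h. All libraries from 24 h on were above those of DMSO and 6 h. It was past both limits at 24 h (1.58, SE 0.08, adjusted p = 3.4e-11), 48 h (1.88, SE 0.08, adjusted p = 2.4e-12) and 72 h (1.8, SE 0.08, adjusted p = 2.8e-12), and was the largest rise at 48 h. The mitochondrial GLRX2 and sulfiredoxin (SRXN1), which repairs overoxidized peroxiredoxins, were 0.52 (SE 0.09, adjusted p = 3.8e-05) and 0.53 (SE 0.06, adjusted p = 1.6e-07) below DMSO at 72 h. The mitochondrial pair moved less, TXN2 falling by 0.48 at 72 h (SE 0.05, adjusted p = 3.7e-08) and TXNRD2 rising by 0.48 at 24 h (SE 0.09, adjusted p = 0.00010).

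Sestrins restrain the growth kinase mTORC1 and respond to stress and amino acid shortage. SESN2, a target of the stress factor ATF4, was at 7.56, 7.55 and 7.81 TPM in DMSO, 5.60, 6.50 and 6.38 at 6 h, 10.5, 11.6 and 12.2 at 24 h, 14.7, 14.8 and 11.2 at 48 h and 24.8, 27.3 and 24.6 at 72 h. It was below DMSO at 6 h (-0.48, SE 0.07, adjusted p = 1.1e-05) and 1.67 above it at 72 h (SE 0.06, adjusted p = 1.7e-13). SESN3 reached 11.7, 10.2 and 9.19 TPM at 24 h, 11.6, 12.5 and 9.17 at 48 h and 8.90, 8.58 and 9.27 at 72 h. Its changes were 1.04 at 24 h (SE 0.06, adjusted p = 1.1e-10; 0.98 without UM171 24 h replicate 1) and 1.2 at 48 h (SE 0.06, adjusted p = 1.4e-11). SESN1, a p53 target and the most abundant of the 3 in DMSO, was at 19.6, 19.4 and 20.3 TPM there, 21.6, 23.6 and 26.7 at 6 h, 27.4, 28 and 24.6 at 24 h, 20.7, 21.3 and 17.9 at 48 h and 28.9, 27.7 and 30.5 at 72 h. All 3 sestrins were above DMSO at 24 h and at 72 h at an adjusted p under 0.05, beside 34.9% and 38.8% of all genes.

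The genes that control the antioxidant response were both lowest at 72 h. KEAP1 was at 119, 115 and 119 TPM in DMSO, 89.7, 96.2 and 94.6 at 6 h, 90.3, 95.0 and 92.0 at 24 h, 68.9, 74.3 and 51.0 at 48 h and 49.0, 53.8 and 56.2 at 72 h. Every library with UM171 lay below DMSO, and the change reached -1.23 at 72 h (SE 0.06, adjusted p = 1.6e-11). NFE2L2 was at 74.8, 75.1 and 74.9 TPM in DMSO, 65.4, 67.2 and 66.2 at 6 h, 74.5, 75.4 and 71.7 at 24 h, 58.9, 59.7 and 52.5 at 48 h and 51.9, 53.3 and 56.0 at 72 h. It was below DMSO at 6 h (-0.36, SE 0.03, adjusted p = 1.0e-07), 48 h (-0.37, SE 0.03, adjusted p = 2.5e-08) and 72 h (-0.55, SE 0.03, adjusted p = 1.2e-10). NRF2 is regulated mainly as a protein, which these data do not measure.

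At 48 h, 6 members were past both limits, all upward (GLRX, MGST2, SESN3, GSTM4, PRDX1 and SOD1), beside 11.7% of all genes. By edgeR 0 were past both limits downward, beside 4.67% of all genes, with 12 lower at an unadjusted p under 0.05, and DESeq2 and limma also called 0. In all 21 rose and 11 fell at an adjusted p under 0.05, beside 37.1% and 35.0% of all genes. At 72 h, 6 were past both limits upward (TXNIP, GLRX, SESN2, SLC7A11, GSTM4 and MGST2) and 2 downward (KEAP1 and GCLM), beside 15% and 5.8% of all genes. In all 16 rose and 11 fell at an adjusted p under 0.05, beside 38.8% and 36.8%. The counts past both limits at 48 h and 72 h, and that of rises at 72 h, were near these background shares and are no result about the set. The rises at 48 h, 21 of 40, were above the share of 37.1%, and the 11 falls at each time were below theirs. These differences were not tested.

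**Figure D2:**
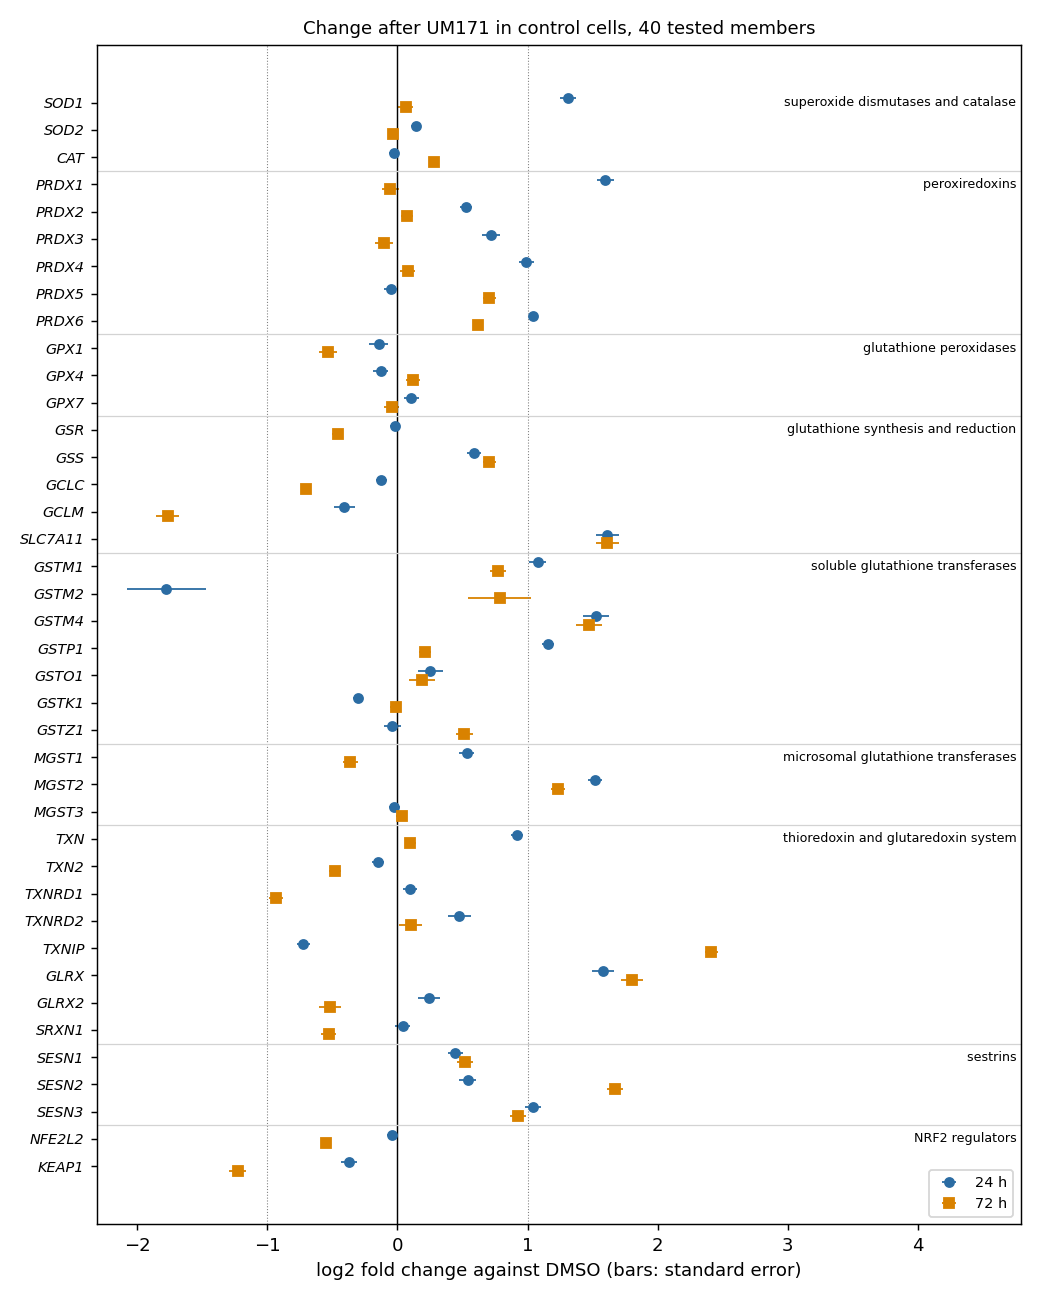
Log2 fold change against DMSO of the 40 tested members at 24 h (blue circles) and 72 h (orange squares) of UM171, with standard errors as bars and dotted lines at 2-fold. SOD1, PRDX1 and GSTP1 were past 2-fold at 24 h and at 0.06, -0.05 and 0.21 at 72 h, while TXNIP went from -0.72 to 2.41.

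The comparison of 72 h with 24 h, which does not involve the DMSO libraries, gave 3 members past both limits upward (TXNIP, GSTM2 and SESN2) and 4 downward (PRDX1, GCLM, SOD1 and TXNRD1), beside 8.89% and 3.04% of all genes. SESN2 rose by 1.13 (SE 0.06, adjusted p = 3.5e-11) and GCLM fell by 1.36 (SE 0.09, adjusted p = 3.5e-10). Under the looser limit 10 rose and 24 fell, beside 36.4% and 33.4% of all genes. The median over members was -0.32 and that over all genes 0.04. All control DMSO libraries are labelled 72 h, so time in culture cannot be told apart from time in UM171 here.

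The second question was whether sgEPCR cells expressed these genes differently before UM171. Many members were higher in sgEPCR than in control cells in DMSO, but their call depended on the 2 libraries with high mitochondrial counts and on the scaling. With all 12 libraries, 1 member was past both limits upward (SOD1), beside 1.43% of all genes. By edgeR 0 were past both limits downward, beside 1.41% of all genes, with 7 lower at an unadjusted p under 0.05, and DESeq2 and limma also called 0. Under the looser limit 16 were higher and 5 lower, beside 17.4% and 16.3% of all genes, and without the 2 libraries 24 were higher and 10 lower, beside 30.3% and 30%. Under total count scaling, with a median over all genes of -0.25, the split was 4 and 4. Without the 2 libraries 3 members were past both limits upward, beside 3.11% of all genes, and 0 downward, beside 3.4%, with 10 lower at an unadjusted p under 0.05. The count of 1 became 4 without sgEPCR UM171 replicate 2 alone and stayed at 1 without any other single library.

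SOD1 was at 194, 336 and 334 TPM in sgEPCR DMSO, against at most 138 in control DMSO, so that the groups did not overlap. The log2 difference was 1.57 (SE 0.11, adjusted p = 4.4e-06), or 1.43 without the 2 libraries (SE 0.04, adjusted p = 9.3e-12). GSTP1 was at 101, 402 and 367 TPM, with the library of high mitochondrial counts below every control library and the other two above (0.91, SE 0.29, adjusted p = 0.033, and without the 2 libraries 1.14, SE 0.04, adjusted p = 5.3e-11). GSTM1 was at 20.5, 42.8 and 45.0 TPM, with a difference of 1.01 (SE 0.12, adjusted p = 0.00012) and, without the 2 libraries, 1.03 (SE 0.06, adjusted p = 2.1e-09). Thioredoxin was at 231, 345 and 338 TPM (1.22, SE 0.21, adjusted p = 0.0013, and 0.99 without, SE 0.04, adjusted p = 1.4e-10). In the libraries not set apart, these 4 genes stood within or below the range that control cells had after 24 h of UM171 and above that of control DMSO.

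The same held in part for the peroxiredoxins. PRDX1 was at 186, 490.1 and 542 TPM in sgEPCR DMSO (0.79, SE 0.16, adjusted p = 0.0033, and 0.93 without, SE 0.04, adjusted p = 4.5e-10), PRDX6 at 99.2, 251 and 233 TPM (0.89, SE 0.07, adjusted p = 1.1e-05, and 0.93 without, SE 0.03, adjusted p = 4.7e-11), and PRDX4 at 53.7, 104 and 104 TPM (0.57, SE 0.07, adjusted p = 0.00017, and 0.62 without, SE 0.04, adjusted p = 2.5e-08). In each case the library with 35.9% mitochondrial counts was below control DMSO in TPM and the other two were above. Catalase, which did not rise with UM171 at 24 h, was also higher, at 95.2, 213 and 209 TPM (0.67, SE 0.08, adjusted p = 9.6e-05, and 0.72 without, SE 0.03, adjusted p = 4.1e-10). SLC7A11 was lower, at 1.19, 2.52 and 2.58 TPM, with no overlap with control DMSO (-0.68, SE 0.12, adjusted p = 0.0016, and -0.70 without, SE 0.10, adjusted p = 2.9e-05). GCLM stood at 9.12, 21 and 22.1 TPM, below each control DMSO library (-0.38, SE 0.13, adjusted p = 0.051, and -0.41 without, SE 0.07, adjusted p = 0.00019).

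**Figure D3:**
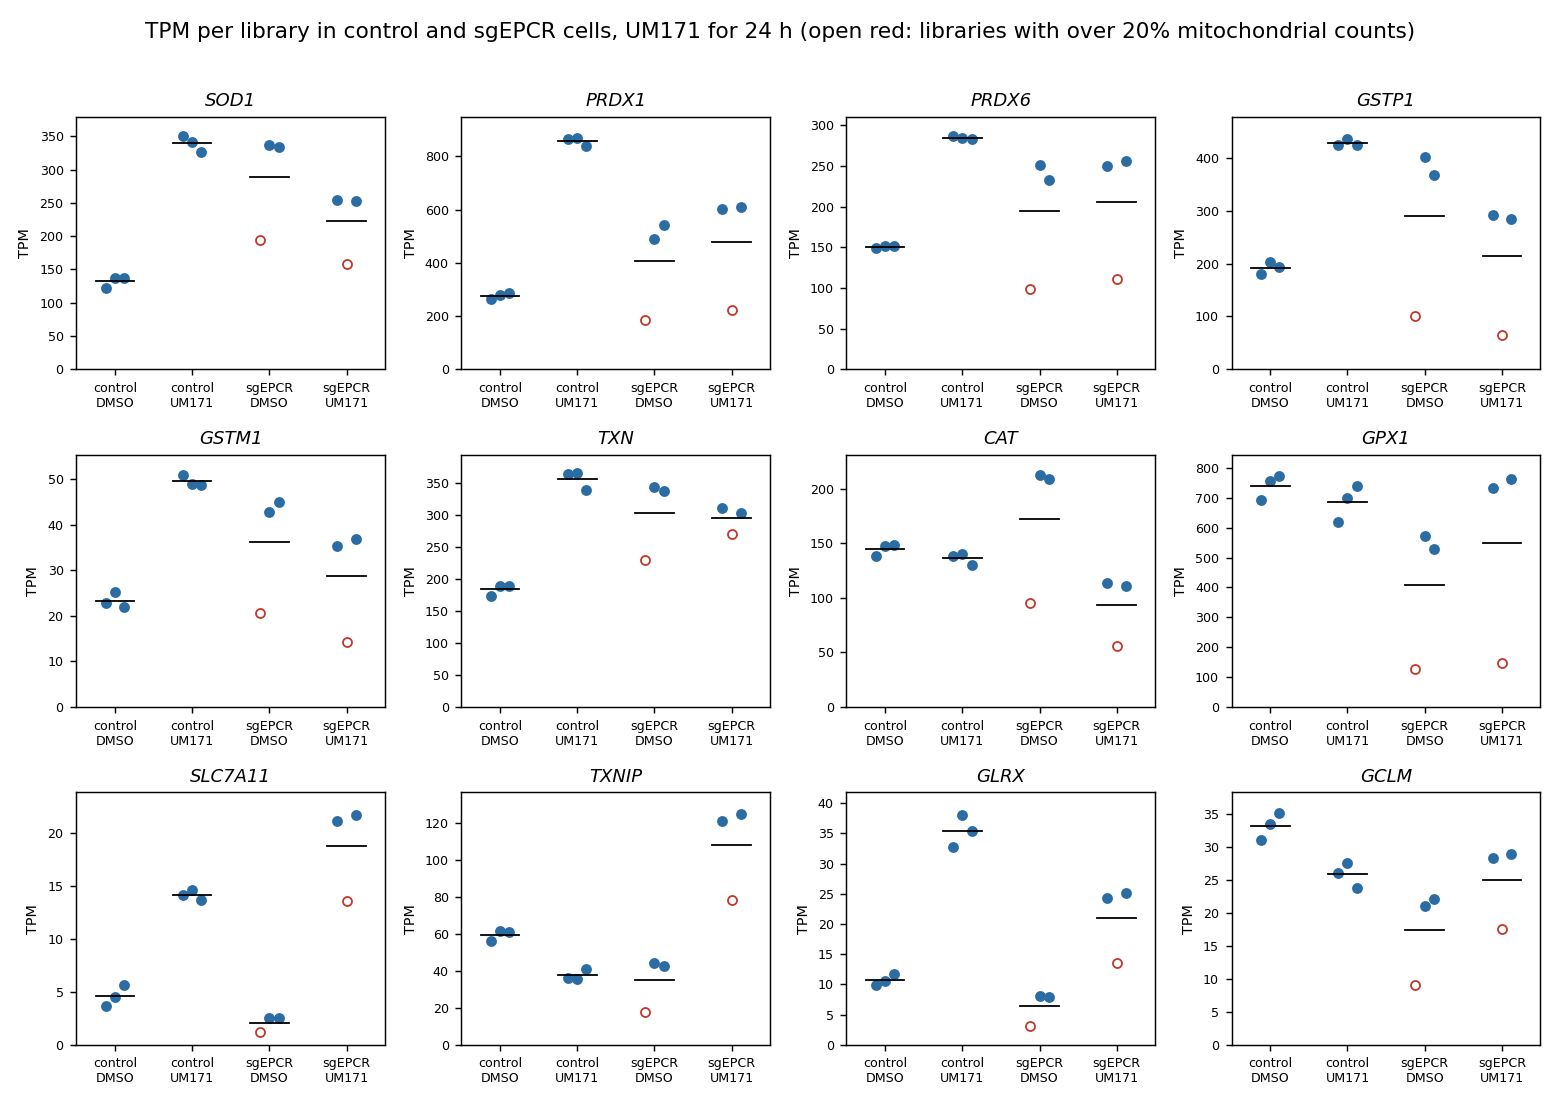
TPM of 12 members in control and sgEPCR cells in DMSO and after 24 h of UM171 (points are libraries, bars the mean of 3, open red points the 2 libraries with over 20% mitochondrial counts, vertical axes from 0). For SOD1 the sgEPCR DMSO libraries, at 194 to 336 TPM, lie above control DMSO, whereas SLC7A11 and TXNIP are higher in each sgEPCR library with UM171 than in any sgEPCR library without it.

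UM171 was next compared with DMSO within sgEPCR cells. SLC7A11, GLRX and TXNIP were past both limits upward and 1 member, CAT, downward, or 3 and 1 of 40, beside 6.99% and 3.33% of all genes. The counts were again 3 and 1 without the 2 libraries, beside 9.98% and 5.72%. These counts were near or below the shares and are no result about the set. SLC7A11 and GLRX were also past both limits upward in control cells at 24 h, whereas TXNIP fell there and CAT changed little. Under the looser limit 7 rose and 13 fell, beside 27.0% and 25.1%. When the 2 libraries were left out 13 rose and 21 fell, beside 34.5% and 36.4%, and with all libraries but total count scaling, where the median over all genes was 0.16, 7 rose and 5 fell. SLC7A11 went to 21.2, 13.6 and 21.7 TPM from at most 2.58 in sgEPCR DMSO, a rise of 2.93 (SE 0.13, adjusted p = 4.5e-08), or 7.63-fold, and of 2.83 without the 2 libraries (SE 0.10, adjusted p = 9.0e-12). GLRX went from 3.16, 8.04 and 7.99 TPM to 24.4, 13.5 and 25.1 TPM (1.58, SE 0.16, adjusted p = 1.6e-05, and 1.49 without, SE 0.09, adjusted p = 3.3e-09). The GLRX call lost its adjusted p under 0.0001 without sgEPCR DMSO replicate 2 (1.51) or 3 (1.53). TXNIP went from 17.9, 44.1 and 42.3 TPM to 121, 78.0 and 125 TPM (1.34, SE 0.10, adjusted p = 1.2e-06, and 1.25 without, SE 0.05, adjusted p = 2.5e-11). Catalase fell to 113, 55.5 and 111 TPM (-1.11, SE 0.08, adjusted p = 9.0e-07, and -1.11 without, SE 0.04, adjusted p = 6.8e-12). With total count scaling the CAT value was -0.94, short of the 2-fold limit, and with upper quartile scaling it was just short of it.

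SOD1 fell in sgEPCR cells given UM171, to 255, 159 and 253 TPM (-0.63, SE 0.11, adjusted p = 0.00064, and -0.60 without, SE 0.04, adjusted p = 2.2e-08). GSR fell to 38.2, 19.9 and 36.9 TPM from 39.4, 64.0 and 63.9 (-0.99, SE 0.07, adjusted p = 7.1e-07, and -0.99 without, SE 0.05, adjusted p = 1.5e-10), just short of 2-fold. PRDX1 stood at 602, 223 and 611 TPM (0.16, SE 0.16, adjusted p = 0.44, and 0.16 without, SE 0.05, adjusted p = 0.0068). The gene that rose 3.03-fold in control cells thus changed little here, with or without the 2 libraries.

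After UM171, sgEPCR and control cells differed past both limits in 1 member, TXNIP, beside 2.67% of all genes upward and 1.79% downward. Without the 2 libraries it was again 1, beside 6.09% and 3.78%. In all 5 were higher in sgEPCR cells and 14 lower at an adjusted p under 0.05, beside 20.8% and 22.2% of all genes. With the 2 libraries left out 8 were higher and 24 lower, beside 32.4% and 35.9%. By edgeR 0 members were past both limits downward with or without the 2 libraries, with 19 and 24 lower at an unadjusted p under 0.05, whereas DESeq2 called 1 and limma 0. TXNIP was at 36.3, 35.5 and 41.0 TPM in control UM171 and 121, 78.0 and 125 TPM in sgEPCR UM171, a difference of 1.57 (SE 0.10, adjusted p = 1.2e-06), or 1.60 without (SE 0.04, adjusted p = 2.5e-12). PRDX4 at 98.7, 58.7 and 96.0 TPM, PRDX1 and GSTP1 (292, 64.8 and 284 TPM) were each below the 3 control libraries with UM171.

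The third question was whether the 2 genotypes responded differently, tested as the response in sgEPCR cells minus that in control cells. One member was past both limits upward and 6 downward, beside 3.6% and 4.17% of all genes. Without the 2 libraries 2 were past upward and 13 downward, beside 9.28% and 9.79%. In all 5 were higher and 18 lower at an adjusted p under 0.05, beside 21.9% and 23.1%, and without the 2 libraries 9 were higher and 24 lower, beside 33.6% and 35.6%. The median over members was -0.48 and that over all genes -0.02. The count of 7 became 4 without replicate 2 or 3 of DMSO, of UM171 24 h or of sgEPCR DMSO, and it was 2 with total count scaling, 0 with limma and 12 with DESeq2.

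SOD1 gave the difference -1.95 (SE 0.16, adjusted p = 4.9e-06), and -1.90 without the 2 libraries (SE 0.06, adjusted p = 5.1e-12). GSTM4, at 4.81, 8.53 and 6.23 TPM in sgEPCR DMSO and 7.54, 2.98 and 6.85 TPM with UM171, gave -2.02 (SE 0.24, adjusted p = 6.7e-05, and -1.75 without, SE 0.15, adjusted p = 9.5e-08). GSTM1, at 35.4, 14.1 and 36.9 TPM in sgEPCR UM171, gave -1.68 (SE 0.17, adjusted p = 2.4e-05, and -1.56 without, SE 0.08, adjusted p = 5.0e-10). In each of these 3 genes control cells rose past both limits at 24 h, and sgEPCR cells in DMSO were above control DMSO in the fit.

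The peroxiredoxins PRDX4 (-1.24, SE 0.10, adjusted p = 6.3e-06, and -1.24 without) and PRDX6 (-1.24, SE 0.10, adjusted p = 6.4e-06, and -1.21 without) moved alike. PRDX6 was at 249.7, 111 and 257 TPM in sgEPCR UM171. Catalase gave -1.09 (SE 0.11, adjusted p = 2.2e-05, and -1.08 without, SE 0.05, adjusted p = 1.5e-10). TXNIP gave 2.05 (SE 0.14, adjusted p = 1.6e-06, and 1.98 without, SE 0.06, adjusted p = 6.9e-12), since it fell in control cells at 24 h and rose in sgEPCR cells. The calls for GSTM4, CAT and GSTM1 lost their adjusted p under 0.0001 when single libraries were left out. For GSTM4 this was any 1 of 11 of the 12 libraries, the exception being sgEPCR UM171 replicate 2, with values of -1.92 to -2.15 and adjusted p of 0.00010 to 0.00041. For CAT and GSTM1 it was any 1 of the control libraries and sgEPCR DMSO replicate 2 or 3, with values of -1.07 to -1.13 for CAT and -1.64 to -1.72 for GSTM1 and adjusted p of up to 0.00017 and 0.00019.

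**Figure D4:**
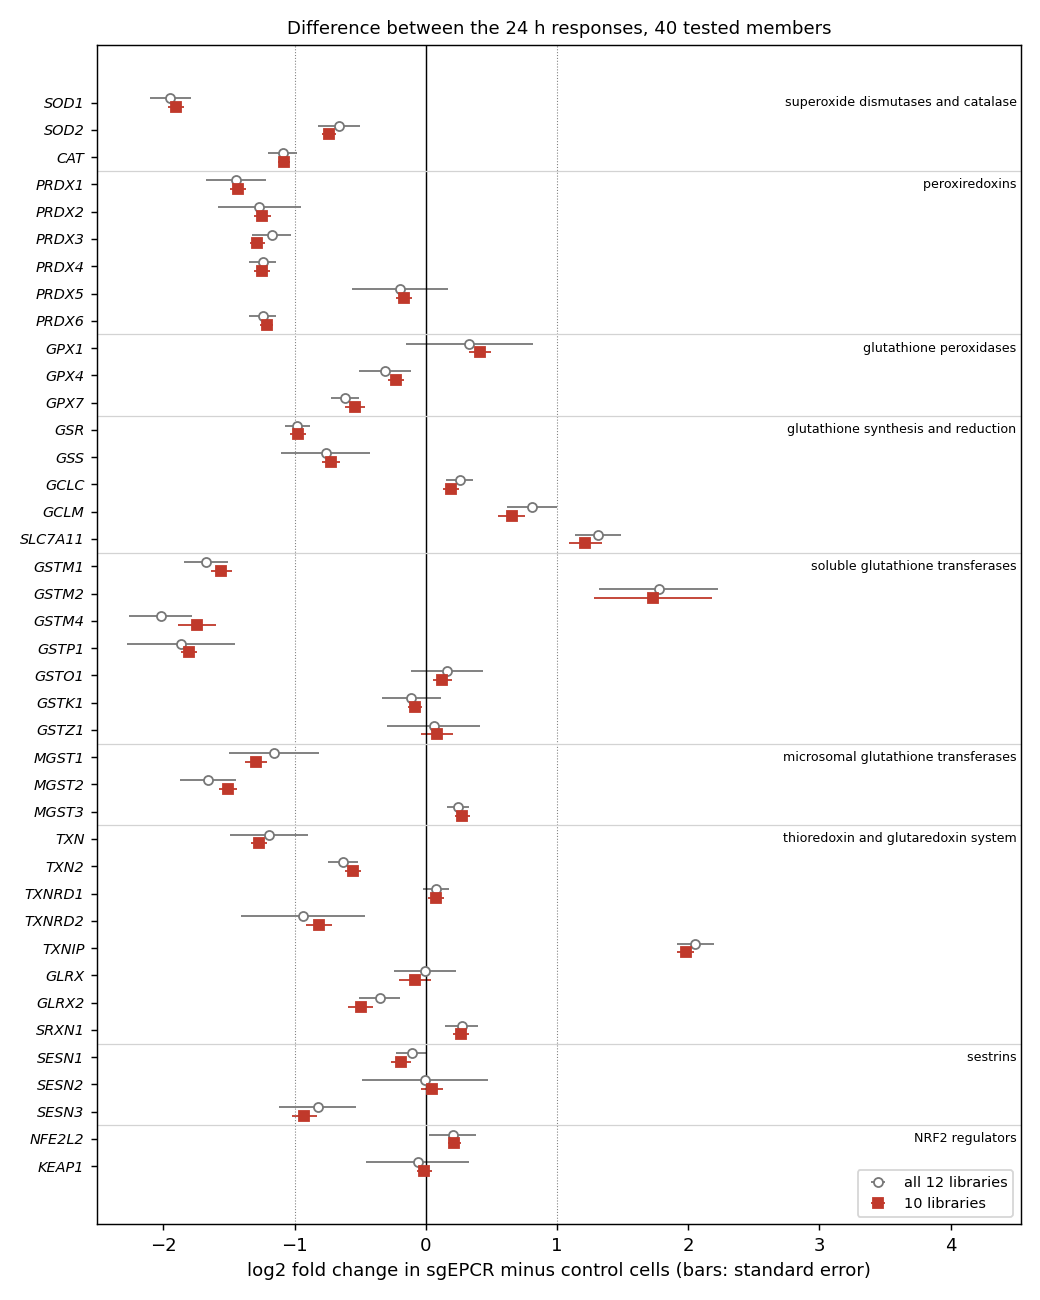
Response to UM171 at 24 h in sgEPCR cells minus that in control cells (log2 fold change) for the 40 tested members, with all 12 libraries (open grey circles) and with the 10 libraries left without the 2 of high mitochondrial counts (red squares), bars being standard errors and dotted lines 2-fold. The values of the 2 fits lie close together, as for SOD1 at -1.95 and -1.90, and most bars are shorter with 10 libraries.

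Leaving out the 2 libraries added 8 members past both limits, with smaller standard errors and little change in their values. Only 2 libraries were then left in each sgEPCR group, and whether they came from different clones is not known. The shares of all genes past both limits also grew, from 3.6% to 9.28% upward and from 4.17% to 9.79% downward. GSTP1 went from -1.87 (SE 0.41, adjusted p = 0.0038) to -1.81 (SE 0.06, adjusted p = 9.6e-12), and PRDX1 from -1.45 (SE 0.23, adjusted p = 0.00044) to -1.43 (SE 0.06, adjusted p = 1.1e-10). MGST2, MGST1, PRDX3, TXN and PRDX2 likewise gave -1.51, -1.29, -1.28, -1.27 and -1.25. SLC7A11, whose rise was larger in sgEPCR cells, went from 1.31 (SE 0.17, adjusted p = 0.00013) to 1.21 (SE 0.13, adjusted p = 8.2e-07). GLRX (-0.00, SE 0.24, adjusted p = 0.99) rose by 1.58 in each genotype, and without the 2 libraries its difference was -0.08 (SE 0.12, adjusted p = 0.55). The common biological coefficient of variation was 0.187 in the fit of 12 libraries, against 0.0564 in the time course.

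The other genes of these pathways were counted in 5 lists that hold none of the members. At 24 h, among other genes of glutathione metabolism, 16 of 21 were tested and 13 rose and 2 fell at an adjusted p under 0.05, beside 34.9% and 34.8% of all genes. GLO1, the glyoxalase that detoxifies methylglyoxal with glutathione, rose by 1.21 (SE 0.05, adjusted p = 3.8e-13), and GSTCD by 1.34 (SE 0.06, adjusted p = 2.8e-12). At 72 h 11 rose and 3 fell, beside 38.8% and 36.8% of all genes, with CHAC1, which degrades glutathione, at 3.69 above DMSO (SE 0.09, adjusted p = 1.6e-15). Of 11 other thioredoxin and repair genes 8 rose and 2 fell at 24 h, with AIFM2 (FSP1), which guards against ferroptosis apart from glutathione, at 1.87 (SE 0.07, adjusted p = 1.9e-13).

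Of 10 genes that supply NADPH, the final electron donor of both systems, 5 rose and 4 fell at 24 h, which is near the shares of 34.9% and 34.8% among all genes. Malic enzyme ME1 rose by 1.61 (SE 0.07, adjusted p = 1.8e-12) and isocitrate dehydrogenase IDH1 by 1.06 (SE 0.04, adjusted p = 9.2e-13), whereas the pentose phosphate enzymes TKT and PGD fell by 1.14 (SE 0.05, adjusted p = 1.5e-12) and 0.66 (SE 0.05, adjusted p = 3.4e-09). Of 15 other NRF2 targets and partners, 6 rose and 8 fell at 24 h, and 5 rose and 10 fell at 72 h, where the shares among all genes were 38.8% and 36.8%. PIR rose by 2.80 at 24 h (SE 0.06, adjusted p = 8.8e-16) and the small MAF protein MAFF by 2.60 (SE 0.18, adjusted p = 9.4e-10), while FTH1, the ferritin heavy chain, fell by 1.21 (SE 0.04, adjusted p = 1.8e-13). NQO1, a quinone reductase commonly used as a readout of NRF2, was 0.45 above DMSO at 24 h (SE 0.09, adjusted p = 0.00036) and fell by 2.73 at 72 h (SE 0.12, adjusted p = 1.1e-12). Of 7 genes that produce oxidants, 2 rose and 4 fell at 24 h, too few to read against the share among all genes. NCF1, a cytosolic subunit of the phagocyte oxidase, fell by 2.41 (SE 0.07, adjusted p = 1.0e-14), and CYBB, its catalytic subunit, rose by 0.88 (SE 0.07, adjusted p = 7.3e-09).

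For the difference in response between genotypes, 8 of 16 tested glutathione genes, 4 of 11 thioredoxin and repair genes and 6 of 10 NADPH genes were lower at an adjusted p under 0.05, and 1, 0 and 1 were higher, beside 23.1% and 21.9% of all genes. Leaving out the 2 libraries, 10, 9 and 6 were lower and 3, 0 and 3 higher, beside 35.6% and 33.6%. Among the other NRF2 targets and partners 7 were higher and 3 lower, and 9 and 4 without the 2 libraries. FTH1 gave 2.56 (SE 0.10, adjusted p = 6.6e-08, and 2.57 without the 2 libraries), SQSTM1, an autophagy receptor that binds KEAP1, 2.10 (SE 0.22, adjusted p = 2.8e-05, and 2.14 without), and PIR -3.33 (SE 0.12, adjusted p = 5.9e-08, and -3.31 without).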

How the data were processed

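Poly(A) RNA of 21 OCI-AML5 libraries was sequenced with a stranded kit. For each library the authors deposited RSEM expected counts per gene, not normalized, in which reads that match several genes are split between them. The authors also deposited TPM, which accounts for effective length and sums to one fixed total per library, and RSEM's posterior standard deviation of the count. The submitters' processing notes name CASAVA 1.8.2, Trimmomatic 0.35, STAR 2.5.1b, RSEM 1.2.28 and GRCh38, whereas the methods name kallisto and sleuth. Other columns, such as gene lengths, were not used. Of 58219 entries, 45 of the Y pseudoautosomal regions were added to their X counterparts. Genes were matched by symbol, and SOD2 by its transcript identifiers. Totals were 24.3 to 51.5 M counts per library, and the floor of 3 counts covers counting error only.

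The rounded expected counts were fitted with edgeR 4.0.16 in R 4.3.3 (TMM, filterByExpr, quasi-likelihood test, the fold and p limits being those of the study, Benjamini-Hochberg adjustment over all tested genes), with 15 libraries and 16575 genes for the time course and 12 libraries and 15901 genes for the sgEPCR comparisons, 9 comparisons in all. The group was the only term. Values of fits are log2 fold changes, and standard errors were derived from these and the F statistic. P-values measure the spread between libraries of a group. Without the 2 libraries of high mitochondrial counts 16360 genes were tested. The model fits were tested on simulated data, with the same spread for every gene and no outlying library. DESeq2 1.42.0, limma 3.58.1 on log2(TPM + 1), other scalings and filters, all 21 libraries in 1 fit, the replicate number as a block and leaving out each library were alternatives, as were fits without the 2 libraries, whose combinations with limma or total count scaling were chosen after seeing the data.

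The members and the lists of related genes were chosen with earlier results of these data known. All members are described by class. TPM in each library is given for members past both limits in any comparison and for the most abundant member of each class, and statistics for the members past both limits with the largest changes, at most 6 a comparison, and for members of the same class set beside them. Genes of the lists named with values were picked for their role or change after their values were seen. Promoters came from RefSeq on GRCh38.p14. Figures used Python 3.11.15 and matplotlib 3.10.9. Values of some single genes of the lists are not reported here.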

Additional observations from a re-analysis of the deposited data

Results flagged for a closer look

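The response to UM171 at 24 h differed between sgEPCR and control cells, by edgeR's test of the difference itself, in 7 members. The log2 difference was below 0 for GSTM4 (-2.02), SOD1 (-1.95), GSTM1 (-1.68), PRDX4 (-1.24), PRDX6 (-1.24) and CAT (-1.09) and above 0 for TXNIP (2.05). Without the 2 libraries of high mitochondrial counts the values were -1.75, -1.90, -1.56, -1.24, -1.21, -1.08 and 1.98. The control DMSO libraries are labelled 72 h and the sgEPCR DMSO libraries 24 h, so that genotype and culture time cannot be told apart in this difference.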

How the results depend on the processing

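The 45 log2 fold changes past both limits were computed under 1033 alternative settings. In 946 they kept their direction and their side of both limits, in 87 they kept their direction and lost a limit, and 0 reversed. The calls lost were 17 with limma, 10 with total count scaling, 7 with the replicate block, 4 with upper quartile scaling, 3 with all 21 libraries in 1 fit and 1 with at least 10 counts in every library. Single libraries left out gave 40, and leaving out the 2 libraries of high mitochondrial counts with limma or total count scaling gave 5. Of 207 alternative medians over the members 204 moved by less than the spread, and the cause of the other 3 was not tested. This spread was the largest standard deviation within a group of the library medians of log2(TPM + 1). In the sgEPCR comparisons it includes the 2 libraries of high mitochondrial counts, so the count cannot show that those medians are stable. For sgEPCR against control cells in DMSO the median was 0.21 by edgeR, -0.03 with total count scaling and -0.25 with limma. With no minimum fold change and an adjusted p under 0.05, the members counted were 23 at 6 h, 30 at 24 h, 32 at 48 h, 27 at 72 h, 34 from 24 to 72 h, 20 for UM171 in sgEPCR cells, 21 for sgEPCR against control cells in DMSO, 19 for the same in UM171 and 23 for the difference in response.

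The counts in the sgEPCR comparisons depended on the setting, and the cause was not tested. For the difference in response the count of 7 was 12 with DESeq2, 0 with limma, 2 with total count scaling, 11 with all 21 libraries and 15 without the 2 libraries of high mitochondrial counts, and without those it was 11 with limma and 14 with total count scaling. Leaving out single libraries gave 4 to 10. For sgEPCR against control cells in DMSO the count of 1 was 4 with DESeq2, 0 with limma, 3 with no filter on low counts, 4 with all 21 libraries, 3 without the 2 libraries and 2 without them and with total count scaling, and 1 to 4 when single libraries were left out, the 4 coming without sgEPCR UM171 replicate 2. For the same comparison in UM171 the count of 1 was 3 with DESeq2, 0 with limma, 0 with total count scaling and 3 with all 21 libraries. For UM171 in sgEPCR cells the count of 4 was 1 with limma and 2 with total count scaling. At 6 h total count scaling gave 1 in place of 0.

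Of 24 pairs of same-numbered libraries 1 had a correlation over 0.1 (range -0.56 to 0.41). Both extremes came from sgEPCR DMSO with sgEPCR UM171, where the libraries of high mitochondrial counts carry different numbers. For these groups the check cannot tell whether the numbers pair the libraries. In the other groups same-numbered libraries did not deviate together. With the replicate block the count for the difference in response was 2 in place of 7. GSTM2, with at most 66.8 counts in a library, is limited by depth.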

Other observations

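Some related genes changed more than any member did at the same time. MAFF was 4.16 above DMSO at 72 h on the log2 scale (SE 0.16, adjusted p = 2.9e-13), and MSRB2, a mitochondrial methionine sulfoxide reductase, was 2.77 above it at 24 h and 3.25 at 72 h. GGT1, which breaks down glutathione outside the cell, stood 2.73 above DMSO at 72 h. MPO, the myeloperoxidase of neutrophil granules, turns hydrogen peroxide into hypochlorous acid. In control cells it rose with 24 h of UM171, from 2.65, 2.74 and 2.67 TPM to 4.63, 5.78 and 5.35 TPM. In sgEPCR cells MPO fell, from 3.69, 9.08 and 8.98 TPM to 0.99, 0.48 and 0.74 TPM. The difference in response was -4.38 (SE 0.16, adjusted p = 5.9e-08, and -4.45 without the 2 libraries of high mitochondrial counts). In DMSO, MPO was 1.8 higher in sgEPCR cells than in control cells. Fold changes and p-values are by edgeR, and the genes were chosen after their values were seen.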
